A study of Mus musculus with 24 samples.

Results

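Potassium channels and HCN channels set the resting potential and the firing of sensory neurons. The arrays carried 91 genes of this kind among 27398 gene names, taken as every name that begins with Kcn, or with Hcn and a single digit, and they were read by 139 of 41174 probes. Each gene is given here by its probe with the highest mean signal. RNA came from L4 and L5 dorsal root ganglia (DRGs), the ganglia that hold the cell bodies of the neurons whose axons run in the sciatic nerve, of adult male mice on a C57BL/6J background. *Nfil3* knockout (KO) mice, bred from a floxed line crossed to mice with Cre under a human CMV promoter, were compared with wildtype (WT) littermates. NFIL3 is a transcription factor of the bZIP class. Ganglia were taken at day 2 or day 5 after the sciatic nerve was cut and its ends were coaptated, and control ganglia came from the side that was not injured. Each of the 6 groups had 4 samples, and the 24 samples lay on 12 arrays with 1 sample in each dye channel.

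The targeted gene was measured in every sample. The log2 signal of *Nfil3* lay between 8.44 and 11.09 in the 12 WT samples and between 2.82 and 7.59 in the 12 KO samples, of which 5 were well above background, a mark that the scanner software sets when a spot is clearly brighter than its surroundings. The highest KO value, 7.59, belongs to the library labelled KO control replicate 4, and the other KO controls read 2.94, 3.80 and 4.37, so its *Nfil3* signal goes against its label. Control samples have day 0 in their titles, as this library does, but its day entry reads 5. It stayed among the KO controls by its title, and every KO value below includes it. Relative to the KO control mean, which includes it, its median over the channel genes was -0.04 and over macrophage markers 0.29. In the KO day 5 samples these medians were -0.59 to -0.29 and 1.39 to 1.81. Without this library 44 channel genes passed the threshold at day 2 and 53 at day 5, against 49 and 53 with it, and 22 and 27 in KO alone, against 28 and 33. Among the other KO samples *Nfil3* was highest, at 5.30 to 6.23, in KO day 2 replicates 1 and 4 and KO day 5 replicates 1 and 3. Each of these shared an array with a lesioned WT sample. The remaining KO samples, at 2.82 to 4.37, did not. The part of the array partner in these values was not tested. The labels call the tissue DRG neurons, but glial and macrophage genes were well above background too, so the values are those of whole ganglia. In such bulk RNA, fewer cells of a type and less RNA per cell cannot be told apart.

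Voltage-gated potassium channels are tetramers of alpha subunits that open on depolarization. Members of the Kv1 to Kv4 families and KCNQ carry current on their own, while the Kcng, Kcns, Kcnf and Kcnv subunits are electrically silent and work only together with Kv2 subunits. Cytoplasmic beta subunits, KChIPs and KCNE proteins shape gating and transport. Inward rectifiers (Kcnj) and K2P channels (Kcnk) carry background current, Kcnn, Kcnma1 and Kcnt1 open on internal calcium or sodium, and HCN channels pass the inward current that hyperpolarization evokes. Loss of potassium current is a known feature of axotomized sensory neurons.

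After the lesion, channel genes were mostly lower. With WT and KO averaged, 43 of 91 genes fell and 6 rose at day 2, and 48 fell and 5 rose at day 5, at a Benjamini-Hochberg adjusted p of 0.05 in limma over all probes. By the same rule 12.7% of all genes fell and 9.48% rose at day 2, and 13% fell and 10.2% rose at day 5, so the share of channel genes that fell was above the background (47.3% and 52.7%) and the share that rose was below it (6.59% and 5.49%). The median log2 change over the 91 genes was -0.41 at day 2 and -0.43 at day 5, and over all genes -0.02 and -0.03. The median of the channel genes was -0.19 at both days with normexp in place of the Edwards background correction, and -0.21 and -0.24 with none. Without WT day 2 replicate 4, 3 genes rose at day 2. All 45 genes that passed at both days had the same direction at both. Both comparisons use the same control samples, so this agreement is not independent.

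Of the 91 genes, 63 were well above background in all 24 samples, 20 in at least 4 of them, 3 in fewer, and 5 in none (*Kcna3*, *Kcnj1*, *Kcnj5*, *Kcnj6* and *Kcnv2*). None of the last 8 passed the threshold at either day. At day 5 all 8 lesioned samples were below all 8 control samples for 27 channel genes, as for 6.13% of all genes, and at day 2 for 10, as for 2.77% of all genes.

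**Figure D1:**
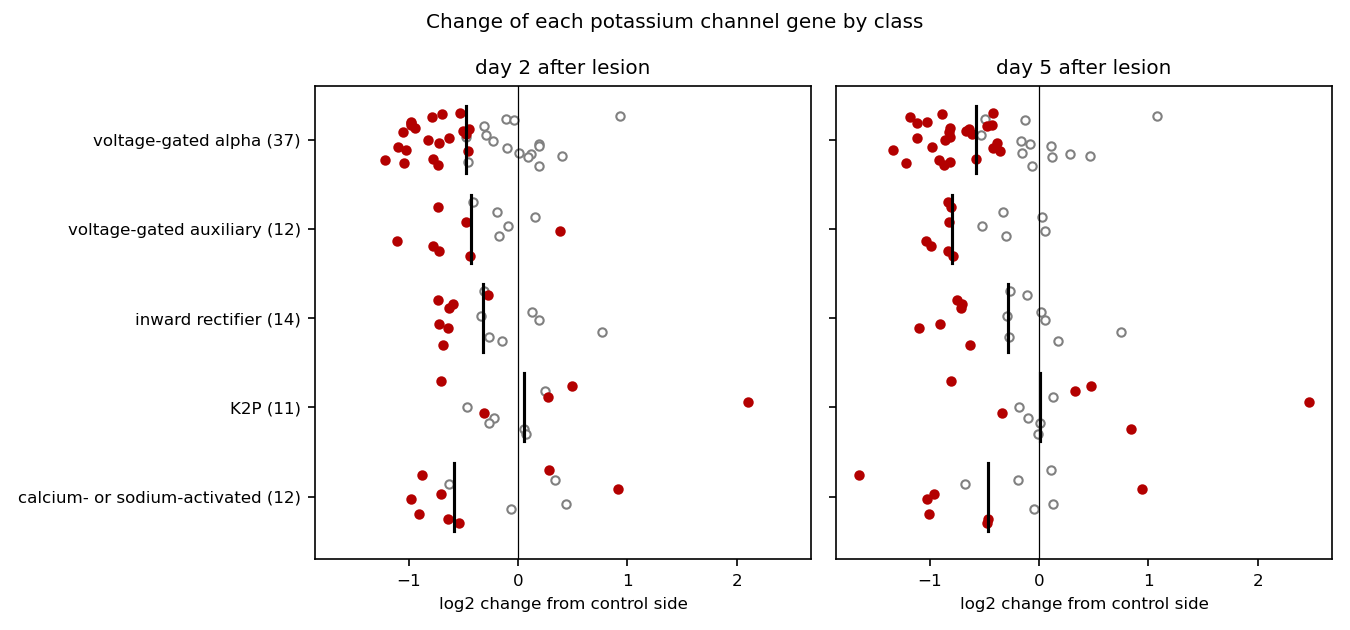
Log2 change from the control side at day 2 and day 5, mean of WT and KO, for the potassium channel genes by class, without the non-coding RNA Kcnq1ot1. Each dot is a gene, filled where the adjusted p was under 0.05, and black lines are class medians. Filled dots right of 0 are in the K2P, auxiliary and calcium- or sodium-activated classes alone, and the dot farthest to the right is Kcnk16 in K2P.

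The plot of changes by class shows where the falls lay. Among 37 voltage-gated alpha subunits 21 fell at day 2 and 25 at day 5, and none rose. Of 12 auxiliary subunits 6 fell and 1 rose at day 2, and 7 fell at day 5. Of 14 inward rectifiers 7 fell at day 2 and 6 at day 5. Of 12 genes classed as calcium- or sodium-activated channels and their subunits, 6 fell at each day, while 2 rose at day 2 and 1 at day 5. *Kcnu1* is counted in that class by its symbol alone. K2P channels differed in direction. Of 11 genes 3 rose and 2 fell at day 2, and 4 rose and 2 fell at day 5. Of all genes 9.48% rose and 12.7% fell at day 2, and 10.2% and 13% at day 5. In WT alone 2 and 3 of the K2P genes rose, and in KO alone only *Kcnk16* did at each day.

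*Kcns1* and *Kcns3* encode silent subunits that modify Kv2 channels. The log2 signal of *Kcns1* was 8.55, 8.59, 8.55 and 7.93 in WT control, 7.46, 7.02, 7.00 and 7.62 at day 2, and 7.48, 7.51, 7.71 and 7.42 at day 5. In KO it was 8.50, 8.65, 8.57 and 8.53 in control, 7.08, 7.66, 7.63 and 6.65 at day 2, and 7.71, 7.50, 7.63 and 7.55 at day 5. Every lesioned sample was below every control sample, WT control replicate 4 being the control nearest to them. The log2 change was -1.22 ± 0.14 (SE; adjusted p = 1.84e-06, limma) at day 2 and -0.92 ± 0.14 at day 5 (adjusted p = 4.22e-05), that is 2.32 and 1.89 times lower. *Kcns3* fell by 1.04 and 1.22 on the log2 scale and its groups did not overlap at either day. Among the other silent subunits, *Kcng2*, *Kcng3*, *Kcng4*, *Kcns2* and *Kcnv1* fell at day 5, with changes from -0.81 to -1.12. Another *Kcng3* probe did not pass.

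*Kcnb2* encodes a Kv2 pore subunit, which carries delayed rectifier current and pairs with these silent subunits. It read 9.28, 9.71, 9.39 and 9.59 in WT control, 8.82, 8.22, 8.26 and 8.86 at day 2 and 8.19, 8.69, 7.96 and 8.36 at day 5. In KO the values were 9.83, 9.42, 9.39 and 9.41 in control, 7.89, 9.33, 9.14 and 7.69 at day 2 and 8.88, 8.62, 8.15 and 8.29 at day 5. At day 5 all lesioned samples lay below all controls, and at day 2 KO replicate 2 reached into the control range while KO replicates 1 and 4 had the lowest values of all samples. The change was -0.98 ± 0.21 at day 2 and -1.11 ± 0.21 at day 5 (adjusted p = 0.00189 and 0.000478).

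**Figure D2:**
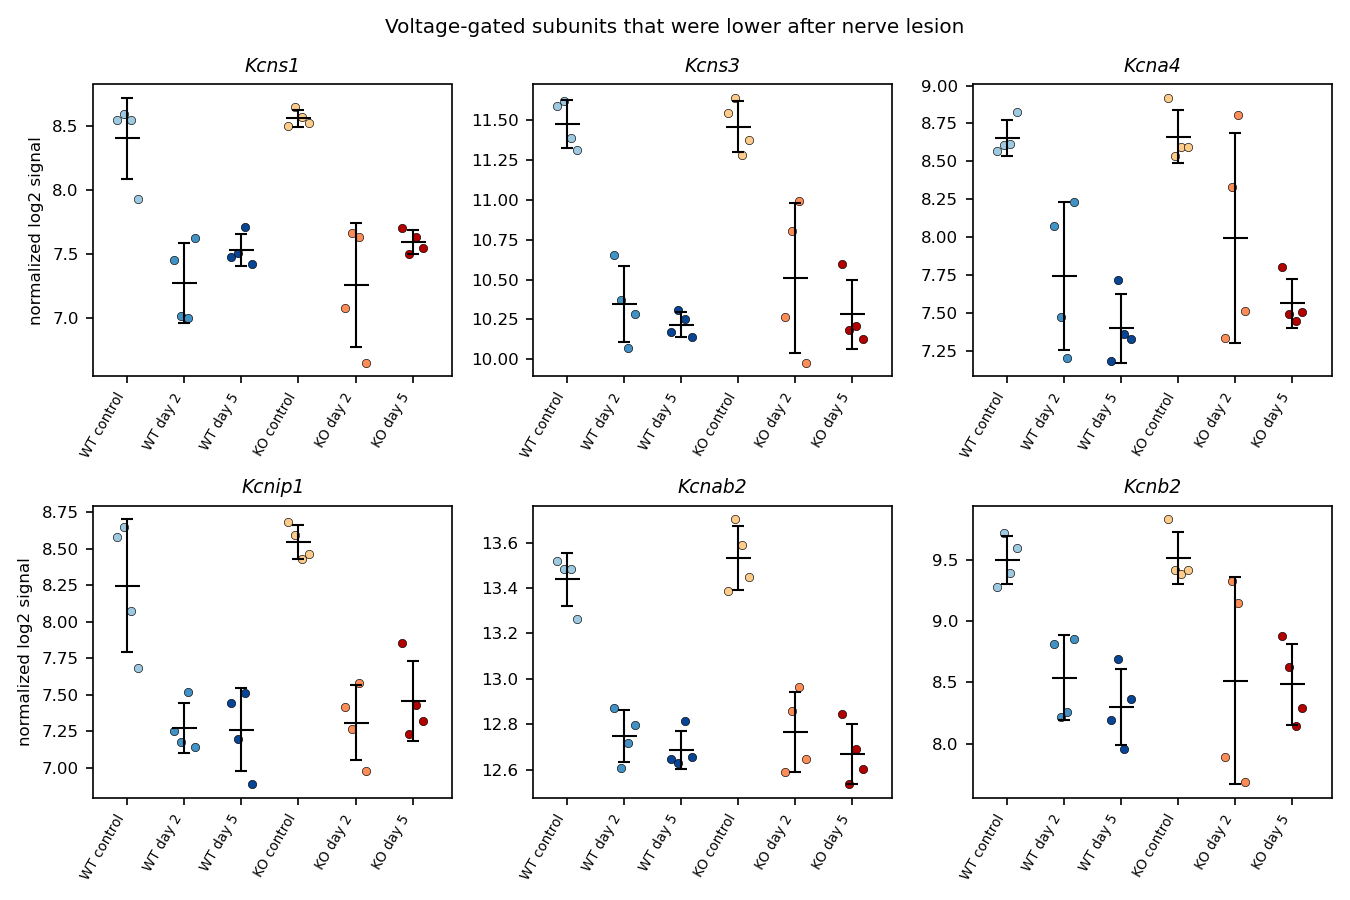
Normalized log2 signal of 6 voltage-gated subunits in the 24 samples, by genotype and time point. Dots are samples, bars are mean ± SD of 4, and the vertical axes differ between panels and do not start at 0. Each lesioned group mean is below the control mean of its genotype, and in KO at day 2 the dots of Kcnb2 and Kcna4 lie far apart.

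The Kv1 and Kv4 channels, which carry delayed rectifier and A-type currents, showed falls of unlike size. Of 6 Kv1 genes, *Kcna1*, *Kcna2* and *Kcna4* fell at both days, *Kcna4* by 0.79 and 1.18. At day 2 *Kcna4* read 8.33 and 8.81 in KO replicates 2 and 3, near or within the control range, and 7.33 and 7.51 in replicates 1 and 4. By contrast, *Kcna5* and *Kcna6* did not pass (log2 changes of -0.49 and -0.12 at day 5, adjusted p = 0.0646 and 0.41). *Kcna1*, *Kcna5* and *Kcna6* lie together on chromosome 6, with probes between 126482573 and 126658483 (mm9). All 3 Kv4 genes fell at both days, *Kcnd2* by 1.05 and 0.82. Of 2 *Kcnd2* probes both passed at day 2 and 1 at day 5. The call of *Kcnd3* at day 2 was lost in 12 of 39 other settings, with a change as small as -0.17, and in KO alone 0 of the 3 passed at day 2. All 4 KChIP genes, whose products bind Kv4 channels, fell at both days as well. *Kcnip1* fell by 1.10 at day 2 and 1.04 at day 5, 2.15 and 2.05 times lower, and *Kcnip1* at day 2 was lower in all 8 lesioned samples than in any control.

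*Kcnab2*, a beta subunit of Kv1 channels, had the smallest standard error of the 91 genes at day 2. Its log2 signal was 13.52, 13.49, 13.49 and 13.26 in WT control, 12.87, 12.61, 12.72 and 12.80 at day 2 and 12.65, 12.63, 12.81 and 12.66 at day 5. In KO it was 13.39, 13.70, 13.59 and 13.45 in control, 12.59, 12.86, 12.96 and 12.65 at day 2 and 12.84, 12.54, 12.69 and 12.60 at day 5. Lesioned and control samples did not overlap, and the change was -0.73 ± 0.07 and -0.81 ± 0.07 (adjusted p = 3.13e-07 and 5.12e-08). *Kcnab1* fell at day 5 (-0.83), and *Kcnab3* did not pass at either day.

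The KCNQ family carries the M-current that limits repetitive firing, and its member *Kcnq5* fell at both days, with changes of -0.77 ± 0.18 at day 2 and -0.58 ± 0.18 at day 5 (adjusted p = 0.00376 and 0.0249). The call at day 5 was lost in 7 of 39 other settings. The log2 change of *Kcnq3* was 0.40 ± 0.20 and 0.47 ± 0.20 and did not pass the threshold. Among the EAG-type channels, *Kcnh5* fell by 1.09 and 0.98 and *Kcnh7* by 1.02 and 1.34, while *Kcnh1*, *Kcnh3* and *Kcnh4* did not pass. Of 3 *Kcnh7* probes 2 passed at each day. In WT alone and in KO alone the *Kcnh7* call at day 2 was lost in 20 and 18 of 39 other settings. The Kv3 gene *Kcnc1* fell by 0.98 ± 0.12 at day 2 and 0.43 ± 0.12 at day 5.

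HCN2 is an HCN subunit modulated by cyclic AMP and known for its part in the firing of nociceptors. *Hcn2* read 9.03, 9.41, 9.14 and 8.73 in WT control, 8.62, 8.26, 8.40 and 8.76 at day 2 and 8.51, 8.28, 8.53 and 8.23 at day 5. In KO it read 9.03, 9.31, 9.17 and 9.25 in control, 8.67, 9.04, 8.64 and 8.19 at day 2 and 8.55, 8.51, 8.61 and 8.58 at day 5. At day 5 the lesioned samples lay below all controls, and at day 2 they overlapped with them. It fell by 0.56 ± 0.11 and 0.66 ± 0.11 (adjusted p = 0.000917 and 0.000148). *Hcn3* and *Hcn4* passed at neither day, with changes of -0.19 ± 0.08 and -0.00 ± 0.10 at day 5.

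*Kcnmb1* and *Kcnmb4* encode beta subunits of the BK channel and moved in opposite directions. The 60-base array probes that read them, and those of the K2P genes *Kcnk16* and *Kcnk6*, are shown because these results rest on 1 probe each, with no letters singled out. The probe of *Kcnmb1* lies at chr11:33866191-33866250, that of *Kcnmb4* at chr10:115854977-115855036, that of *Kcnk16* at chr14:21081597-21081656 and that of *Kcnk6* at chr7:30007215-30007274 of mm9, the last 3 on the minus strand.
Kcnmb1: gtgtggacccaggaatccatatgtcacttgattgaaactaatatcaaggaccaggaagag
Kcnmb4: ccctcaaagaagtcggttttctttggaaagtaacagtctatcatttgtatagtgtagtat
Kcnk16: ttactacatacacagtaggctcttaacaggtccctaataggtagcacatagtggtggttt
Kcnk6: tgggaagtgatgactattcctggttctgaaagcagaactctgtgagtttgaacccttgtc

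*Kcnmb1* read 7.92, 7.97, 7.55 and 7.64 in WT control, 6.83, 6.85, 6.72 and 6.82 at day 2 and 5.98, 6.04, 6.44 and 5.88 at day 5. In KO it read 7.89, 7.81, 7.90 and 7.85 in control, 7.11, 7.08, 7.39 and 6.72 at day 2 and 6.70, 6.20, 6.09 and 6.01 at day 5. Values fell from control to day 2, and in each genotype the day 5 samples were below the day 2 samples. The change was -0.87 ± 0.11 at day 2 and -1.65 ± 0.11 at day 5 (adjusted p = 5.69e-10), 3.13 times lower, the largest fall among the 91 genes. Another *Kcnmb1* probe was well above background in 1 sample and did not pass.

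*Kcnmb4*, the neuronal beta subunit, read 10.94, 10.97, 11.16 and 11.16 in WT control, 11.84, 12.17, 11.72 and 12.03 at day 2 and 12.03, 12.08, 12.10 and 11.95 at day 5. In KO it read 11.02, 11.08, 10.92 and 10.86 in control, 12.07, 11.72, 11.72 and 12.16 at day 2 and 11.71, 11.95, 11.97 and 11.84 at day 5. All 16 lesioned samples were above all 8 controls. The rise was 0.92 ± 0.08 and 0.94 ± 0.08 (adjusted p = 5.68e-08 and 2.79e-08), 1.89-fold and 1.92-fold. *Kcnma1*, the pore subunit of BK, rose by 0.29 ± 0.09 at day 2 (adjusted p = 0.0313), with overlap between the groups, and did not pass at day 5. Of the other channels opened by calcium or sodium, *Kcnt1* fell by 0.90 and 1.00 and *Kcnn2* by 0.98 and 1.02, whereas *Kcnn4* passed at neither day.

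*Kcnk16* encodes TALK-1, a K2P channel known from pancreatic beta cells, and had the largest rise. It was well above background in none of 8 control samples and in all 16 lesioned samples. The log2 signal was 3.04, 3.35, 3.38 and 3.64 in WT control, 5.30, 5.58, 5.35 and 5.53 at day 2 and 5.80, 5.77, 6.18 and 5.69 at day 5. In KO it was 3.58, 2.16, 3.14 and 3.47 in control, 5.51, 5.20, 5.15 and 5.01 at day 2 and 5.34, 5.61, 5.67 and 5.50 at day 5. Since the controls give only a bound, the rise is stated as a minimum on the Edwards-corrected scale. In WT it was at least 3.13-fold at day 2 and 4.19-fold at day 5. In KO it was at least 4.26-fold and 5.29-fold (limma, adjusted p between 1.13e-07 and 1.98e-06 over both genotypes). The measured log2 changes were 2.09 and 2.51 in WT and 2.13 and 2.44 in KO, so the larger KO bounds do not show a larger rise. For the bound, each control array was given a detection limit (its dimmest probe that passed the mark), raised to the Kcnk16 signal where that was brighter, and the mean of the lesioned group was divided by the mean of these limits (means of log2 values). With normexp in place of the Edwards background the measured change was 0.51 at day 2 and 0.66 at day 5 on the log2 scale. That is still past the threshold but below these bounds, which apply to the Edwards-corrected values.

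Other K2P genes changed less. *Kcnk6*, or TWIK-2, read 6.17, 5.93, 6.00 and 6.28 in WT control, 6.00, 6.52, 6.76 and 5.90 at day 2 and 6.93, 7.14, 6.90 and 7.34 at day 5. In KO it read 5.60, 6.08, 5.99 and 6.29 in control, 6.33, 5.39, 5.28 and 6.63 at day 2 and 6.56, 7.00, 6.76 and 6.42 at day 5. It was above all controls at day 5 and spread on both sides of them at day 2. It rose by 0.84 ± 0.18 at day 5 (adjusted p = 0.00173, 1.79-fold). *Kcnk10*, a channel gated by stretch and lipids, rose by 0.50 and 0.48 on the probe used here. Its other probe, at 0.21 and 0.19, did not pass, and with probes averaged the change of *Kcnk10* was 0.23 and 0.22 and the call was lost at both days. *Kcnk13* rose by 0.28 at day 2 and *Kcnk12* by 0.33 at day 5, and these calls were lost in 9 and 12 of 39 other settings. *Kcnk1* and *Kcnk3* fell at both days, and *Kcnk2* passed at neither. The neighbours *Kcnk5* and *Kcnk16* on chromosome 14 differed, *Kcnk5* being at 0.01 ± 0.18 at day 5. No probe on the array was named *Kcnk18*, or TRESK.

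**Figure D3:**
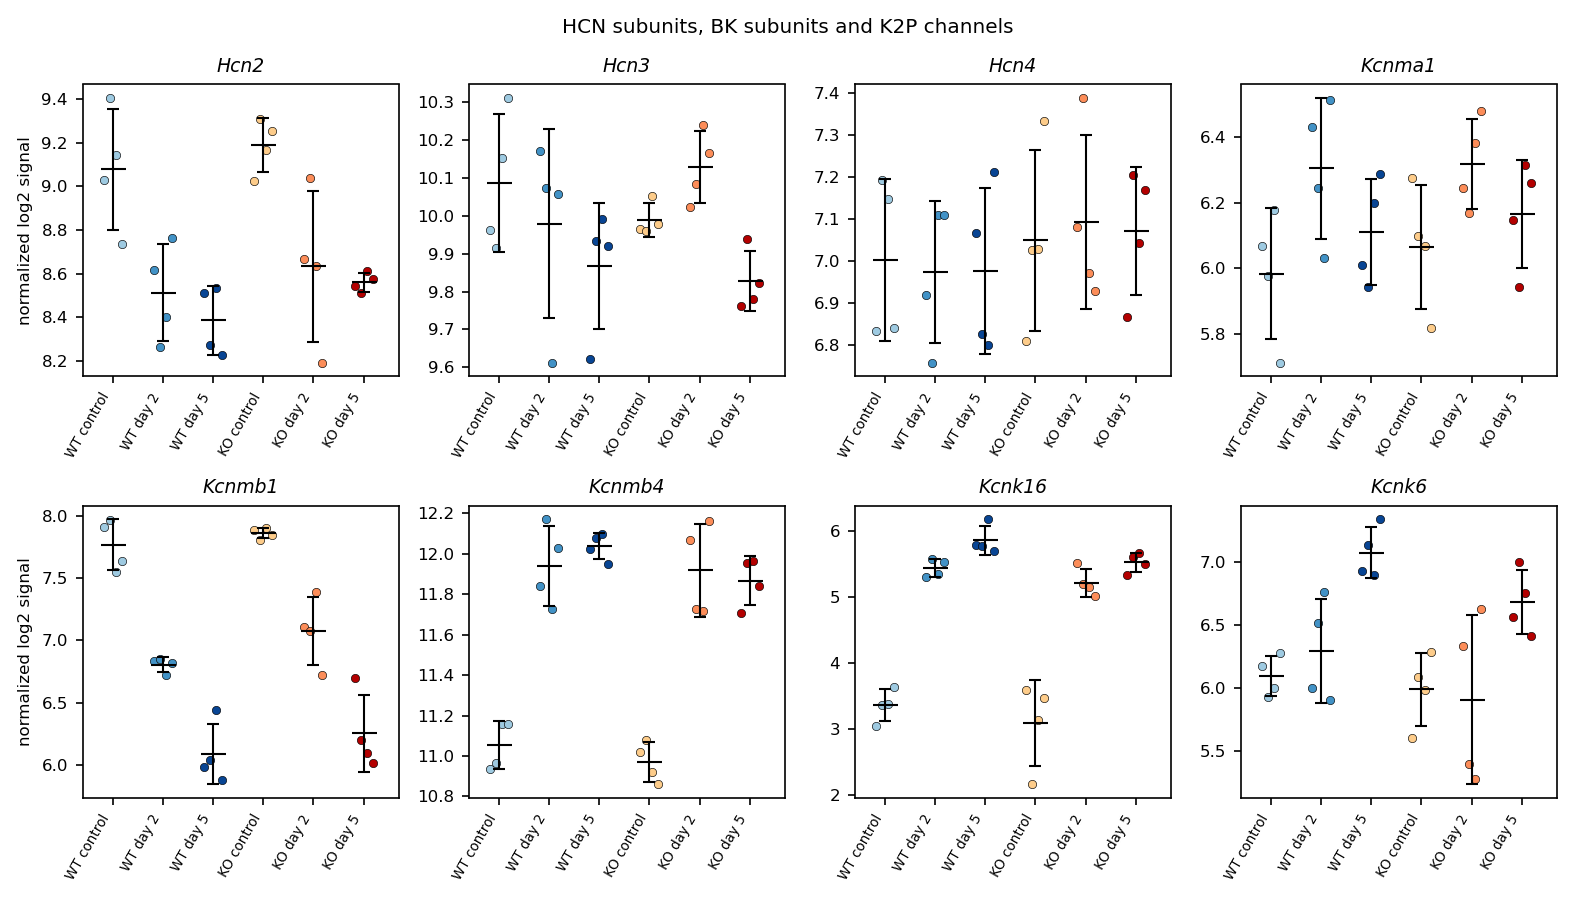
Normalized log2 signal of 3 HCN genes, of 3 BK subunits and of 2 K2P channels in the 24 samples. Dots are samples, bars are mean ± SD of 4, and the vertical axes differ between panels and do not start at 0. Kcnmb4 and Kcnk16 are above all controls in all 16 lesioned samples, Kcnmb1 is below them, and the Hcn4 values of all groups overlap.

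The inward rectifier *Kcnj4* fell by 0.64 at day 2 (adjusted p = 0.0454) and by 1.10 at day 5 (adjusted p = 0.000843). The call at day 2 was lost in 21 of 39 other settings. The GIRK genes *Kcnj3* and *Kcnj9*, whose products respond to G proteins, fell at both days, and so did *Kcnj11*, the pore of ATP-sensitive channels. *Kcnj10*, the Kir4.1 channel of satellite glia, fell by 0.28 ± 0.09 at day 2 (adjusted p = 0.0297) and was at -0.11 ± 0.09 at day 5, where it did not pass. *Kcnj8* and *Kcnj16* passed at neither day.

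The days were also compared with each other. Of the 91 genes 3 differed between day 5 and day 2, as 3.28% of all genes did. *Kcnmb1* was lower at day 5 by -0.77 ± 0.11 (adjusted p = 0.000234), *Kcnk6* was higher by 0.78 ± 0.18 (adjusted p = 0.0203), and *Kcnc1* was higher by 0.55 ± 0.12 (adjusted p = 0.0117), at both days below control. Both comparisons with control use the same control samples.

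**Figure D4:**
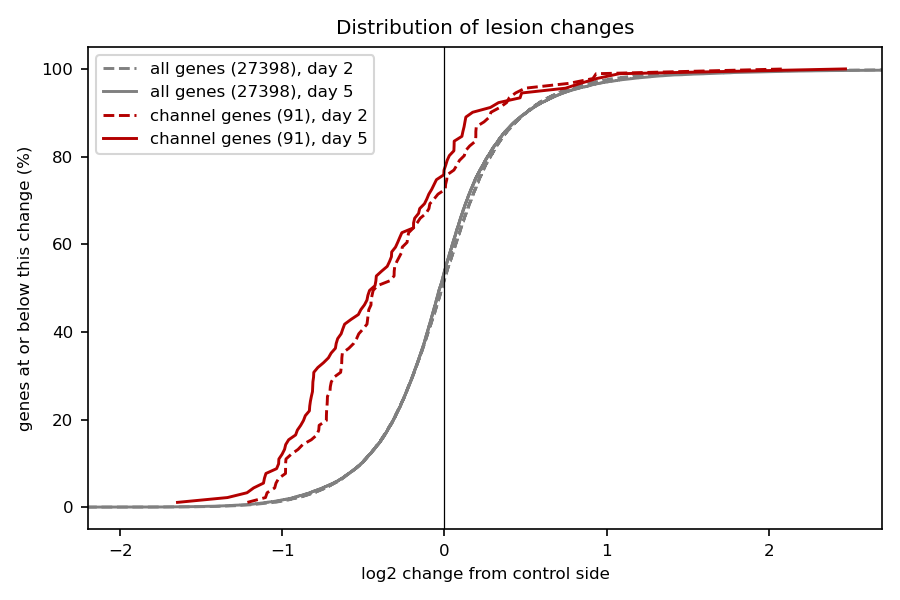
Cumulative share of genes, in percent, at or below a given log2 change from the control side, for the channel genes and for all genes at day 2 and day 5. Over falls and small rises the channel curves lie left of those of all genes, and they meet at large rises. The medians are -0.41 and -0.43 against -0.02 and -0.03 (-0.19 for the channel genes at both days with normexp).

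A list of 24 partner genes was measured as well, most of whose products bind, traffic or cluster the channels. It held 7 genes that fell and 2 that rose at day 2, and 10 that fell and 3 that rose at day 5. Of all genes 12.7% fell and 9.48% rose at day 2, and 13% and 10.2% at day 5. The rise of *Abcc9* at day 5 lay close to the threshold (limma, adjusted p = 0.0499). *Dpp10*, an auxiliary subunit of Kv4 channels, fell by 1.01 and 1.54, and *Dpp6* by 0.56 and 0.72. *Abcc8*, the sulfonylurea receptor that pairs with *Kcnj11*, fell by 0.95 and 1.15, *Cntnap2*, which clusters Kv1 channels beside nodes, by 0.77 and 0.82, and *Pex5l*, which traffics HCN channels, by 0.46 and 0.72. *Rest*, on the list as a repressor of neuronal genes and not as a binding partner, rose by 0.25 and 0.29.

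General neuronal genes moved in the same direction. Of 8 neuronal markers 6 fell at day 2 and 5 at day 5, with median changes of -0.63 and -0.75, and 1, *Tubb3*, rose at day 5. Of 8 macrophage markers 6 rose at day 2 and 8 at day 5, with medians of 0.69 and 1.68. Their summed log2 level ran from 10.63 to 11.48 in controls and from 12.48 to 13.02 at day 5, and all their genes were detected. For 6 markers of myelinating Schwann cells the median was 0.42 at day 2 and 0.14 at day 5. The part of these shifts in the channel results was not tested.

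The lesioned samples differed among themselves. The median of the 91 genes relative to the controls of the same genotype lay between -0.56 and -0.13 in the 8 day 2 samples and between -0.59 and -0.29 in the 8 day 5 samples. The smallest shifts belonged to KO day 2 replicates 2 and 3 (-0.13 and -0.15) and WT day 2 replicates 4 and 1 (-0.26 and -0.32). In those 4 samples macrophage markers were higher than control by 0.19, 0.29, 0.53 and 0.52, against 0.90 to 1.03 in the other 4 day 2 samples, and neuronal markers were lower by -0.38, -0.36, -0.51 and -0.41, against -0.55 to -0.79. Markers of myelinating Schwann cells (-0.32 to 0.27 against 0.73 to 1.35), satellite glia (-0.08 to 0.17 against 0.37 to 0.69) and fibroblasts (-0.95 to -0.35 against 0.11 to 0.64) split the same samples. Markers of T cells (-0.12 to 0.07 against -0.21 to 0.33) and of endothelial and mural cells (-0.18 to 0.09 against -0.10 to 0.17) did not. Those of red blood cells and skeletal muscle overlapped as well. Skeletal muscle markers stood at 3.52 in KO day 2 replicate 4 and 5.06 in KO day 5 replicate 1. The 4 day 2 samples with the smallest shifts each shared an array with a control or day 5 sample. The other 4 shared arrays among themselves. Day 5 samples on an array with another day 5 sample had channel medians from -0.42 to -0.29. The remaining day 5 samples lay between -0.59 and -0.50. Array partner and the markers that split the day 2 samples cannot be told apart here. The part of either in the channel results was not tested. Slides held several groups, and within the 3 slides the median change of the channel genes was -0.17, -0.41 and -0.42 at day 2, where slide 1 held 1 lesioned sample, and -0.41, -0.54 and -0.43 at day 5. With slide as a block 49 genes passed at day 2 and 58 at day 5.

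In WT alone 29 channel genes passed at day 2 and 40 at day 5, where 11% and 13.9% of all genes did. In KO alone 28 and 33 passed, where 11.8% and 12.7% of all genes did. Of these, 22 were shared at day 2 (75.9% of the WT and 78.6% of the KO genes) and 31 at day 5 (77.5% and 93.9%), all in the same direction. The same overlap over all genes was not computed, so it is not known whether it is particular to channel genes. The WT count at day 2 was 18 without WT day 2 replicate 3, the KO count at day 2 was 17 without KO day 2 replicate 1, and the KO count at day 5 was 22 without KO control replicate 3. The study asked whether loss of NFIL3 alters the response to injury, and that difference was tested directly. By limma at the same threshold no channel gene was called between KO and WT in control ganglia, at day 2 or at day 5. No channel gene was called in the interaction of time and genotype either. The shares of all genes called were 0%, 0.0146%, 0.0109% and 0%. At an unadjusted p under 0.05 the counts were 0, 1, 3 and 1 of 91. The deleted gene, *Nfil3*, passed at day 2 and day 5 but not in control ganglia, nor in the interaction. Its log2 difference in control ganglia was -3.98, with an SD of 2.03 among the KO controls, which include replicate 4 at 7.59. The control and interaction tests can thus miss large differences in genes of such spread, and a lack of calls there does not show equal levels.

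**Figure D5:**
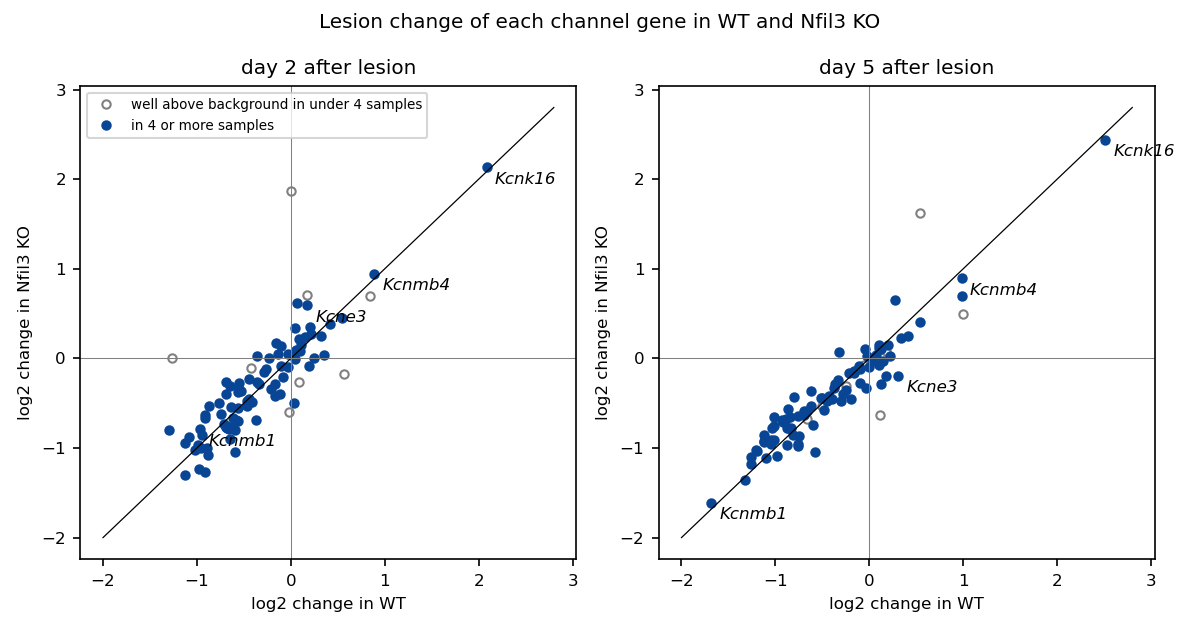
Log2 change from control in WT (horizontal) against Nfil3 KO (vertical) for the 91 channel genes at day 2 and day 5. Each dot is a gene, open where it was well above background in under 4 samples, and the diagonal marks equal change. Kcnk16, Kcnmb4 and Kcnmb1 lie near the diagonal.

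The precision of that comparison can be stated. For the 63 genes well above background in all samples the 95% interval of KO minus WT had a median half-width of 0.39 on the log2 scale, and it lay within 1 log2 unit for 63 genes in control, 61 at day 2 and 63 at day 5. For the difference in the lesion effect the half-width was 0.55, and 53 intervals at day 2 and 57 at day 5 lay within that range. *Kcne3*, an auxiliary subunit, had the smallest interaction p (0.00666 unadjusted, adjusted p = 1.00). It read 5.40, 5.74, 5.64 and 5.65 in WT and 5.92, 5.79, 6.16 and 6.03 in KO at day 2, and 5.91, 5.66, 5.93 and 5.48 in WT and 5.46, 5.63, 5.03 and 4.64 in KO at day 5. KO was higher at day 2 and lower at day 5, and these differences (0.37 and -0.55) did not pass after adjustment. *Kcna6* and *Kcne4* at day 5 (0.32 and -0.44) and *Kcnj6* at day 2 (0.47, well above background in no sample) were the other genes with an unadjusted p under 0.05.

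Promoters of 68 of the 91 genes were found in RefSeq (GRCm38.p6), each 250 bases before to 50 after the gene start. Neither form of the NFIL3 word, TTACGTAA or TTATGTAA, was in any of them on either strand, and 0.126% and 1.11% of all 27025 genes with a promoter held one. The full cyclic AMP response element, TGACGTCA, was in none either, and 2.03% of all genes held it. Its core, TGACG, which the full element contains, was in 25% of the channel promoters and 23% of all. The AP-1 word TGACTCA, read on both strands, was in those of *Kcnip3* and *Kcnk2*, which is 2.94%, and in 5.95% of all genes.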

How the data were processed

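The authors put dye-labeled copies of the RNA on Agilent 4x44K mouse arrays and deposited Feature Extraction output with an unnormalized foreground and background intensity per spot and channel, flags, and processed intensities, which served as an alternative only. Following the methods, the mean foreground was corrected for the median background by the Edwards method. Quantile normalization then ran across all 24 channels, on a log2 scale. Control spots and outlier spots were left out and spots of a probe averaged. In R 4.3.3, limma 3.58.1 (with statmod 1.5.0, reading files through the package data.table, version 1.17.8) fitted 1 mean per group to all 24 samples (lmFit, eBayes), with Benjamini-Hochberg adjustment over 41174 probes and a threshold of 0.05.

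The channel genes and all lists were chosen with earlier results of these data known. Named genes are HCN genes, up to 10 of the largest rises and falls among called genes at each day, the 3 smallest p-values for genotype and interaction, and a list of well-known channels. Other genes were chosen after their values were seen. Replicates are independent per the methods, and which mouse gave which ganglion is not given in the sources used here. Well above background were 54.5% to 72.3% of probes per sample, no spot was saturated, and the number of samples limits precision. Alternatives were other background corrections, signals, normalizations, probe rules, filters and blocks, and each sample left out. Proteins were not used here, and a few genes of the rule are not reported here.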

Additional observations from a re-analysis of the deposited data

Results flagged for a closer look

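For the named genes, a sample was marked where its gap to the nearest of the other 3 in its group took more of the group's range than Dixon's critical value for 4 samples allows at the 95% level. Chance marks about 1 in 20 groups, and 10 of 252 groups were marked where 12.6 are expected by chance. Values are log2 signals.

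*Kcna4* was high in KO control replicate 1 (8.92) and in KO day 5 replicate 1 (7.80), and *Kcnb2* was high in KO control replicate 1 (9.83). *Kcnab2* was low in WT control replicate 4 (13.26) and high in WT day 5 replicate 3 (12.81). WT control replicate 4 was also low for *Kcns1* (7.93, against 8.55 to 8.59 in the others). *Kcnd2* was low in WT day 5 replicate 2 (4.76), and *Kcnq3* was low in WT control replicate 1 (4.63). *Kcnq5* was high in KO day 2 replicate 3 (6.08, against 5.09 to 5.12 in the others), 1 of the samples with the smallest shift of the channel genes. *Kcnj6* was high in WT control replicate 3 (3.55), where it was not well above background.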

How the results depend on the processing

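No called change of a named gene reversed under any of 39 other settings, and of the 54 called changes of named genes at day 2 and day 5, 37 kept their call under all of them. The counts of channel genes at day 2 and day 5 stayed within 1.5 times of 49 and 53. The count for day 5 against day 2 (3) was 6 with normexp and with processed signals, and 5 without background correction, with the filter on dim probes (83 channel genes kept), with dye as a covariate and with slide as a block. Without background correction the median change was -0.21 and -0.24 at day 2 and day 5, and with normexp -0.19 and -0.19, in place of -0.41 and -0.43.

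Leaving out 1 sample at a time gave 42 to 50 genes at day 2, 49 to 55 at day 5, 2 to 5 for day 5 against day 2, 18 to 36 for WT at day 2, 31 to 42 for WT at day 5, 17 to 34 for KO at day 2 and 22 to 37 for KO at day 5. The 18 came without WT day 2 replicate 3, the 17 without KO day 2 replicate 1 and the 22 without KO control replicate 3. Genes that rose at day 2 were 3 without WT day 2 replicate 4. Partner genes called were 7 to 9 and 12 to 14. Of 4 control samples the array partner was a lesioned sample. Without those 4, an alternative chosen after seeing the data, 37 and 43 genes passed at day 2 and day 5, and 16, 19, 13 and 13 in WT at day 2 and day 5 and in KO at day 2 and day 5. The control groups then had 2 samples each and the lesioned groups 4. *Kcnd2* and *Kcnd3* at day 5 and *Kcna4*, *Kcnb2*, *Kcnd1* and *Kcng3* at day 2 were among the genes that lost their call there. *Kcna4* at day 2 was at 0.11 within slide 1, which held 1 lesioned sample of that day. *Kcne3*, *Kcnma1*, *Kcnk13*, *Kcnd3* and *Kcnj10* at day 2 and *Kcnk12* and *Kcnq5* at day 5 each lost their call without 1 of several single samples.

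The samples were not treated as paired, since no label says what a replicate number marks and deviations of same-numbered samples from their group means correlated between -0.06 and 0.21. As a hint from the data, 21 of 24 samples correlated best with their own number, and replicates 1 and 2 were all labelled with Cy3 and replicates 3 and 4 with Cy5, so number and dye are tied. With the replicate block 50 and 54 channel genes passed at day 2 and day 5, and 4 for day 5 against day 2. Signal over background limits the 8 channel genes seen in fewer than 4 samples.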
